A study of Mus musculus with 36 samples.

Results

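The genes described here are 32 enzymes of one-carbon and folate metabolism, out of 20807 protein-coding genes on the autosomes. They were chosen by name from what they do, with earlier results of these data known. Their DNA methylation was read in embryonic mouse brain at E11.5, in embryos with and without a disrupted Tet1 gene. Tet1 encodes a dioxygenase that oxidises 5-methylcytosine (5mC) in DNA. For each gene, the promoter window was the stretch within 2 kb of any annotated transcription start, and the body was the rest of the gene. This gave 62 regions, 32 promoter windows and 30 bodies, since Shmt2 and Gnmt lie wholly inside their windows. Of these, 46 regions in 29 genes held at least 3 CpGs that were covered at least 5 times in every embryo compared. Mthfs, Amt and Mat1a did not, and were not measured.

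One-carbon metabolism moves single carbon units on folate, a vitamin the embryo gets from the dam. Serine, glycine, histidine, choline and formate supply the units, in the cytosol and in the mitochondria, and thymidylate, purine and methionine synthesis use them. Methionine becomes S-adenosylmethionine, the methyl donor of DNA methyltransferases, so the same enzymes also stand upstream of the mark that was measured. Folate status and several of these enzymes, among them those of the glycine cleavage system, are known to bear on closure of the neural tube.

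Embryos came from matings that carried the Tet1 tm1Koh allele, an insertion at the first coding ATG that was made on C57BL/6 and backcrossed onto 129S6. The paper reports that brains without an intact allele lacked the full-length Tet1 transcript at this stage but had low levels of a short isoform. By its blots, TET1 protein was not detected at this stage with or without the intact gene. HET dams were kept for at least 4 weeks on a custom diet with 30, 3 or 0.1 ppm folic acid and mated to HET males, and all 3 diets also held succinylsulfathiazole, a drug that blocks folate synthesis by gut bacteria. Each library was 1 brain, from the forebrain to the hindbrain above the otic vesicle, of a Tet1+/+ (WT), Tet1+/- (HET) or Tet1-/- (KO) embryo. On 30, 3 and 0.1 ppm there were 3, 4 and 2 WT, 5, 3 and 2 HET and 6, 5 and 5 KO embryos, or 9 WT, 10 HET and 16 KO in all, from 12 litters. The labels score the brains as norm, inHB or NTD, and 5 of the 16 KO embryos and none of the others are NTD. Brain is a mixture of cells, and a change in methylation within cells cannot be told apart from a change in the shares of cell types. The files hold no RNA, so the tissue could not be checked against marker genes.

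Oxidative bisulfite sequencing of MspI and TaqI fragments counts 5mC alone, and a level is the share of reads at a set of CpGs that were methylated, in percent. A library held 23.2 to 197 M CpG calls at a mean coverage of 10.9 to 61.5 reads. The shallowest library, HET 0.1 ppm replicate 2, was left out. The genotypes were checked at a CpG in an intron of Tet1 (chr10:62884019, mm10), which read 0 to 7.32% in 7 of the 9 WT libraries and 69.6 to 100% in 15 of the 16 KO libraries. The other 3 did not follow their labels: the library labelled WT 30 ppm replicate 2 read 36.36% (33 reads), the library labelled WT 0.1 ppm replicate 2 read 40.0% (15 reads), and the library labelled KO 30 ppm replicate 1 read 45.0% (20 reads), where HET libraries read 8.33 to 69.2%. The last of these is entered as HET, not KO, in the study's own sample list, so that its label and the list disagree. Groups here follow the labels, all 3 libraries were kept under them, and results are also given without them. The CpG gives a methylation level, from 8 to 103 reads a library, and not the allele. Leaving out WT libraries that read high or a KO library that reads low can by itself widen a gain over WT. HET libraries near the WT and KO values, at 8.33 and 69.2%, were not set apart.

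The stretches shown first were picked after their values were seen, as coding or intron sequence that gained 5mC in KO embryos, and the one of Gcsh for holding both changed and unchanged CpGs. Larger gains than some of these, as in Aldh1l2, Shmt2 and Chdh, are given further on as values. They are reference sequence (GRCm38, the mm10 build of the files), written 5′ to 3′ on the strand of the gene. Capitals mark the CpGs that were measured in all 35 embryos.
Ftcd, coding exon, chr10:76584567-76584641, plus strand: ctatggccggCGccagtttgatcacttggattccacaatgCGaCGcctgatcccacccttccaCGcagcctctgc
Sardh, intron, chr2:27210396-27210504, minus strand: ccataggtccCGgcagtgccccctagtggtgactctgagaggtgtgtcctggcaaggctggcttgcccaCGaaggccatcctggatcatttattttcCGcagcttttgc
Dmgdh, first coding exon, chr13:93674447-93674526, plus strand: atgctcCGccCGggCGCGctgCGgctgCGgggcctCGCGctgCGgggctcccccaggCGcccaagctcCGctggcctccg
Gcsh, first coding exon and the first intron bases, chr8:116993279-116993409, minus strand: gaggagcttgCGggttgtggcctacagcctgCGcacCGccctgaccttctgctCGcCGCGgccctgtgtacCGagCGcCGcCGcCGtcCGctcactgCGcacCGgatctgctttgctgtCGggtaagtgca
Mthfd2, intron, chr6:83316164-83316250, minus strand: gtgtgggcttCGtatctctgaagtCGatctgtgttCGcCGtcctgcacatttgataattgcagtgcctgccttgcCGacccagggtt
The Ftcd exon gained 39.99 to 48.65 points at each of its 4 CpGs in KO embryos, and the Dmgdh exon gained 8.39 to 29.0 points at each of its 11. At the Gcsh exon the last CpG in capitals changed by -0.43 points while the CpG with the most gain rose by 24.35. The first Sardh CpG differed by 0.85 points, and the largest gain of the 3 was 21.4.

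KO embryos carried more 5mC than WT embryos at 11 of the 31 member regions that could be tested over all diets, and no member region was called lower. The 11 lie in 9 genes: the promoter windows of Sardh, Dmgdh, Aldh1l2, Gcsh, Gnmt, Shmt2 and Aldh1l1, and the bodies of Ftcd, Pemt, Aldh1l1 and Sardh. They include enzymes of choline breakdown in mitochondria, both 10-formyltetrahydrofolate dehydrogenases and the carrier protein of glycine cleavage. A region was called at an adjusted p under 0.05 (quasi-binomial F test, two-sided, Benjamini-Hochberg adjustment over all regions of all genes) and a gain of at least 5 points, and a region was tested only where levels had an SD of at least 2 points over the embryos. By the same rule 29.5% of the 13384 regions of all genes were called, 31% of promoter windows and 28.5% of bodies. The members' 7 of 15 promoter windows and 4 of 16 bodies stand against these shares, and nothing particular to one-carbon enzymes is read from them. A KO gain itself adds to the SD and so helps a region into the test, among the members and all genes alike. Of all member regions measured, 7 of 29 promoter windows and 4 of 17 bodies were called. The median difference was 3.03 points over the member regions and 3.30 over all regions, and KO was higher in 29 of 31 member regions and in 93.5% of all. Without the 3 libraries that went against their labels the same 11 member regions were called, with gains of 7.13 to 35.43 points, beside 37.3% of all regions.

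**Figure D1:**
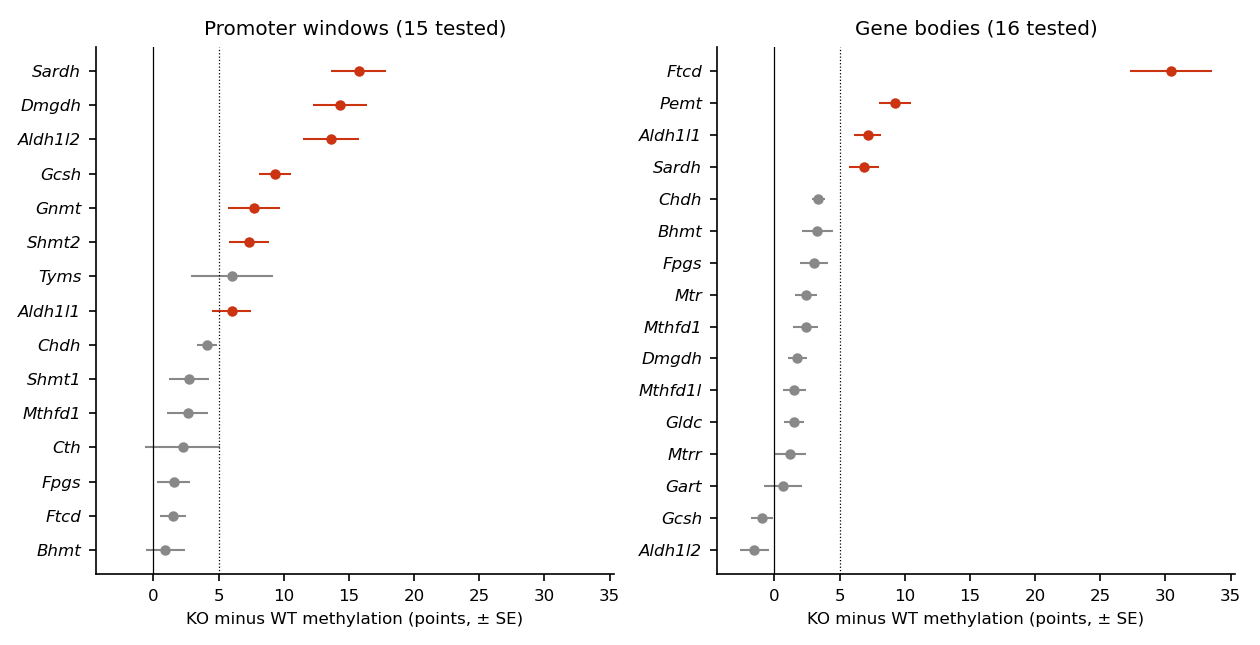
KO minus WT difference in 5mC over all diets for the 31 member regions that were tested, in percentage points with the standard error, red where called and with a dotted line at 5 points. The body of Ftcd stands apart at 30.4 points, the other called regions lie between 6.02 and 15.7, and 2 regions lie below 0.

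Among the cytosolic enzymes, Ftcd had the largest difference of any member. Ftcd (ENSMUSG00000001155.13, chr10:76575648-76590338) encodes the enzyme that passes the formimino group of histidine breakdown to tetrahydrofolate, and is best known from liver. At its 7 body CpGs the WT embryos read 48.2, 63.1 and 48.0% on 30 ppm, 49.7, 46.0, 48.2 and 50.4% on 3 ppm, and 49.2 and 61.9% on 0.1 ppm. KO embryos read 56.0, 83.2, 88.0, 84.5, 77.2 and 90.7% on 30 ppm, 80.4, 87.7, 82.3, 83.7 and 83.6% on 3 ppm, and 79.4, 83.9, 85.8, 85.2 and 85.1% on 0.1 ppm. The groups are apart but for the libraries labelled WT 30 ppm replicate 2, WT 0.1 ppm replicate 2 and KO 30 ppm replicate 1, and 15 of the 16 KO embryos were above every WT embryo. The HET embryos lay from 47.0 to 63.3%, with a median of 55.4%, and overlapped the WT embryos. The gain in KO was 30.4 ± 3.14 points (SE, adjusted p = 1.87e-08) and was the 74th largest of 13384 regions, with 0.545% of regions larger. Without the 3 libraries it was 35.43 ± 1.48 points.

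Ftcd lies 13.7 Mb from Tet1 on chromosome 10, so an effect of C57BL/6 sequence linked to the targeted allele and an effect of the Tet1 genotype cannot be told apart there. Within 20 Mb of Tet1, 34.98% of 323 regions were called, beside 27.5% of 360 on the rest of chromosome 10 and 29.4% on the other autosomes. Aldh1l2, Mthfd1l and Shmt2 are on the same chromosome, 20.7, 58.8 and 64.7 Mb away.

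Aldh1l1 (chr6:90486427-90600203), the cytosolic 10-formyltetrahydrofolate dehydrogenase and a marker of astrocytes, gained 5mC both in its body and at its starts. Over the 19 body CpGs WT embryos ran from 75.2 to 83.0% (median 81.0), HET from 80.9 to 86.0% (median 83.5) and KO from 82.8 to 91.4% (median 87.2). The rise was 7.16 ± 1.04 points (adjusted p = 7.24e-06), and 15 KO embryos were above every WT embryo. The 20 promoter CpGs read 28.4 to 37.3% in WT, 27.8 to 36.5% in HET and 29.7 to 43.1% in KO embryos, which overlap more, with 11 of 16 KO above all WT. Their gain was 6.02 ± 1.49 points (adjusted p = 0.000559). In the window, 6 CpGs by the first start went from a mean of 75.7 to 83.9%, and 13 CpGs at an inner start 64 kb into the gene from 7.35 to 12.3%.

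The other cytosolic members had no called region over all diets. Mthfd1, which interconverts several folate forms in 1 protein, differed by 2.65 ± 1.57 points at its promoter (adjusted p = 0.323) and by 2.40 ± 0.94 points in its body (adjusted p = 0.0293), under the 5 points a call needs. Shmt1, which makes glycine from serine, stood at 15.0% in WT and differed by 2.72 ± 1.54 points at its promoter (adjusted p = 0.197). The promoter window of Ftcd was near full methylation in every genotype, at 93.7% in WT and 95.2% in KO embryos.

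In the mitochondrial branch, which oxidises serine to formate, 2 of the 5 members had promoter windows that could be tested, and both were called, while 0 of 2 bodies were, beside 31% of all promoter windows and 28.5% of all bodies. Aldh1l2 (chr10:83487450-83534140), the mitochondrial sister of Aldh1l1, read 13.5 to 26.8% in WT (median 18.0), 11.9 to 24.8% in HET (median 17.8) and 16.9 to 42.13% in KO embryos (median 32.1) over 28 CpGs. KO was higher by 13.6 ± 2.17 points (adjusted p = 3.32e-06), with 14 of 16 KO above every WT embryo, and the HET embryos overlapped the WT embryos. At a coverage of 10 reads the gain was 20.8 points. The body of Aldh1l2 did not share the gain and differed by -1.53 ± 1.08 points (adjusted p = 0.540).

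Shmt2 (chr10:127517123-127522444), the mitochondrial serine hydroxymethyltransferase, ran from 55.4 to 66.7% in WT (median 58.9), from 56.3 to 63.0% in HET (median 60.2) and from 58.5 to 72.4% in KO embryos (median 68.0) over 29 CpGs. The gain of 7.34 ± 1.55 points (adjusted p = 0.000133) came with 11 of 16 KO embryos above all WT. Mthfd2, Mthfd2l and Mthfd1l, which carry the one-carbon unit from methylene-tetrahydrofolate to formate, had promoter windows at 2.22, 0.4931 and 0.595% in WT embryos, with too little spread to be tested. Within the Mthfd2 window, 5 CpGs 9.7 kb into the gene were higher in KO embryos, as given further on. The body of Mthfd1l differed by 1.54 ± 0.87 points.

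Gcsh (ENSMUSG00000034424.5, chr8:116981810-116993537), the lipoyl-bearing H protein of glycine cleavage, had the lowest starting level of the called members. WT embryos read 7.63, 11.1 and 5.07% on 30 ppm, 6.82, 6.35, 6.24 and 5.41% on 3 ppm, and 5.53 and 8.95% on 0.1 ppm over 39 promoter CpGs. KO embryos read 9.35, 21.0, 16.003, 20.8, 13.5 and 18.0% on 30 ppm, 14.8, 17.2, 15.1, 19.2 and 19.4% on 3 ppm, and 12.6, 14.2, 15.0, 14.3 and 19.8% on 0.1 ppm. Only the library labelled KO 30 ppm replicate 1 falls among the WT values. HET embryos had a median of 7.09%, with a range of 5.66 to 14.02%. The difference was 9.33 ± 1.25 points (adjusted p = 5.74e-08). Gldc, the decarboxylase of the same system, was at 11.1% at its promoter, too even to be tested, and its body differed by 1.504 ± 0.79 points (adjusted p = 0.310).

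Among the enzymes that make or break down choline and betaine, 2 of 4 promoter windows (Sardh and Dmgdh) and 2 of 5 bodies (Sardh and Pemt) were called, beside the same 31% and 28.5%. Dmgdh (ENSMUSG00000042102.7, chr13:93674433-93752833), which removes a methyl group from dimethylglycine onto folate, read 15.0, 17.7 and 12.2% in WT on 30 ppm, 15.4, 16.8, 10.9 and 12.3% on 3 ppm, and 12.7 and 14.2% on 0.1 ppm over 20 promoter CpGs. KO embryos ran from 15.9 to 40.4% with a median of 28.2%, and HET from 10.6 to 23.9% with a median of 15.1%. All KO embryos but the library labelled KO 30 ppm replicate 1, at 15.9%, were above all WT. The gain was 14.3 ± 2.07 points (adjusted p = 7.78e-08) between means of 14.1 and 28.5%. In the body of Dmgdh the difference was 1.77 ± 0.70 points.

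Sardh (chr2:27188393-27248337), the sarcosine dehydrogenase of the next step, was higher in KO embryos in both of its regions. Its promoter window rests on 4 CpGs that lie 21 to 38 kb into the gene, beside inner annotated starts. WT embryos ran from 31.6 to 51.8% (median 47.7), HET from 42.06 to 57.9% (median 52.5) and KO from 52.9 to 68.4% (median 63.0). All 16 KO embryos were above all WT embryos, by a mean of 15.7 ± 2.11 points (adjusted p = 9.56e-07). The 8 body CpGs went from 82.9 to 89.8%, by 6.87 ± 1.13 points (adjusted p = 1.24e-05), with 14 KO embryos above every WT.

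Pemt (chr11:59970614-60046489), which makes phosphatidylcholine by methylation and is best known from liver, ran in its body from 63.1 to 72.5% in WT (median 69.9), 66.5 to 74.603% in HET (median 71.4) and 70.3 to 80.5% in KO embryos (median 78.3) over 17 CpGs. The rise was 9.26 ± 1.25 points (adjusted p = 3.22e-06). Its promoter window stayed low, at 7.26 ± 1.37% in WT (SD, n = 9) and 7.86 ± 1.36% in KO (SD, n = 16), and was not tested. Chdh, choline dehydrogenase, passed the p threshold in both regions without reaching 5 points: the promoter window differed by 4.10 ± 0.78 points (adjusted p = 4.34e-05) and the body by 3.38 ± 0.53 (adjusted p = 8.64e-06), and in the body all 16 KO embryos were above every WT. Bhmt, which uses betaine to remethylate homocysteine, was at 91.8% in its promoter and 91.2% in its body in WT, and differed by 0.91 ± 1.49 and 3.29 ± 1.18 points.

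In the methionine cycle, the 1 promoter window that could be tested was called and the 2 bodies were not, beside 31% of all promoter windows and 28.5% of all bodies. Gnmt (chr17:46725664-46729168), which uses S-adenosylmethionine to methylate glycine and is best known from liver, ran from 43.2 to 55.2% in WT (median 53.7), 49.5 to 58.8% in HET (median 53.4) and 51.9 to 70.7% in KO embryos (median 59.1) over 17 CpGs. The gain was 7.70 ± 2.00 points (adjusted p = 0.00202), with 13 KO embryos above every WT, and 5.05 points with each CpG weighted equally. Mtr, methionine synthase, and Mtrr, which reactivates it, differed in their bodies by 2.42 ± 0.86 (adjusted p = 0.0345) and 1.18 ± 1.24 points. The promoter windows of Mtr, Mtrr, Mat2a, Mat2b and Ahcy held 0.629, 3.29, 0.667, 4.81 and 3.44% in WT embryos and were too even to be tested. Mat2a and Mat2b form the S-adenosylmethionine synthetase found outside liver, and Ahcy clears S-adenosylhomocysteine.

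The remaining groups had no called region over all diets. In transsulfuration, Cbs was at 26.6% in the promoters of WT and of KO embryos and was not tested over all diets. Cth stood at 36.195 ± 6.85% in WT (SD, n = 9) and differed by 2.24 ± 2.89 points (adjusted p = 0.486). In nucleotide synthesis, Tyms, the thymidylate synthase, differed by 6.04 ± 3.14 points over 4 promoter CpGs (adjusted p = 0.265), while the promoters of Atic and Gart, enzymes of purine synthesis that use 10-formyltetrahydrofolate, held 0.585 and 12.5% in WT. The body of Gart differed by 0.67 ± 1.47 points, and that of Atic was at 95.9% in WT and not tested over all diets. For folate retention, Fpgs, which adds glutamates to folate, differed by 1.55 ± 1.27 points at its promoter and by 3.03 ± 1.06 in its body (adjusted p = 0.00795), and Ggh, which removes them, was at 2.02% in WT and 3.67% in KO at its promoter, too even to be tested. Over the 14 promoter windows left untested, KO minus WT lay between -0.93 and 1.65 points. Of the 11 members best known from liver, 4 of 8 tested promoter windows and 4 of 7 bodies were called, and of the other 21, 3 of 7 and 0 of 9, beside 31% of the promoter windows and 28.5% of the bodies of all genes. The difference between these counts was not tested, and the lists were drawn up with earlier results of these data known.

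**Figure D2:**
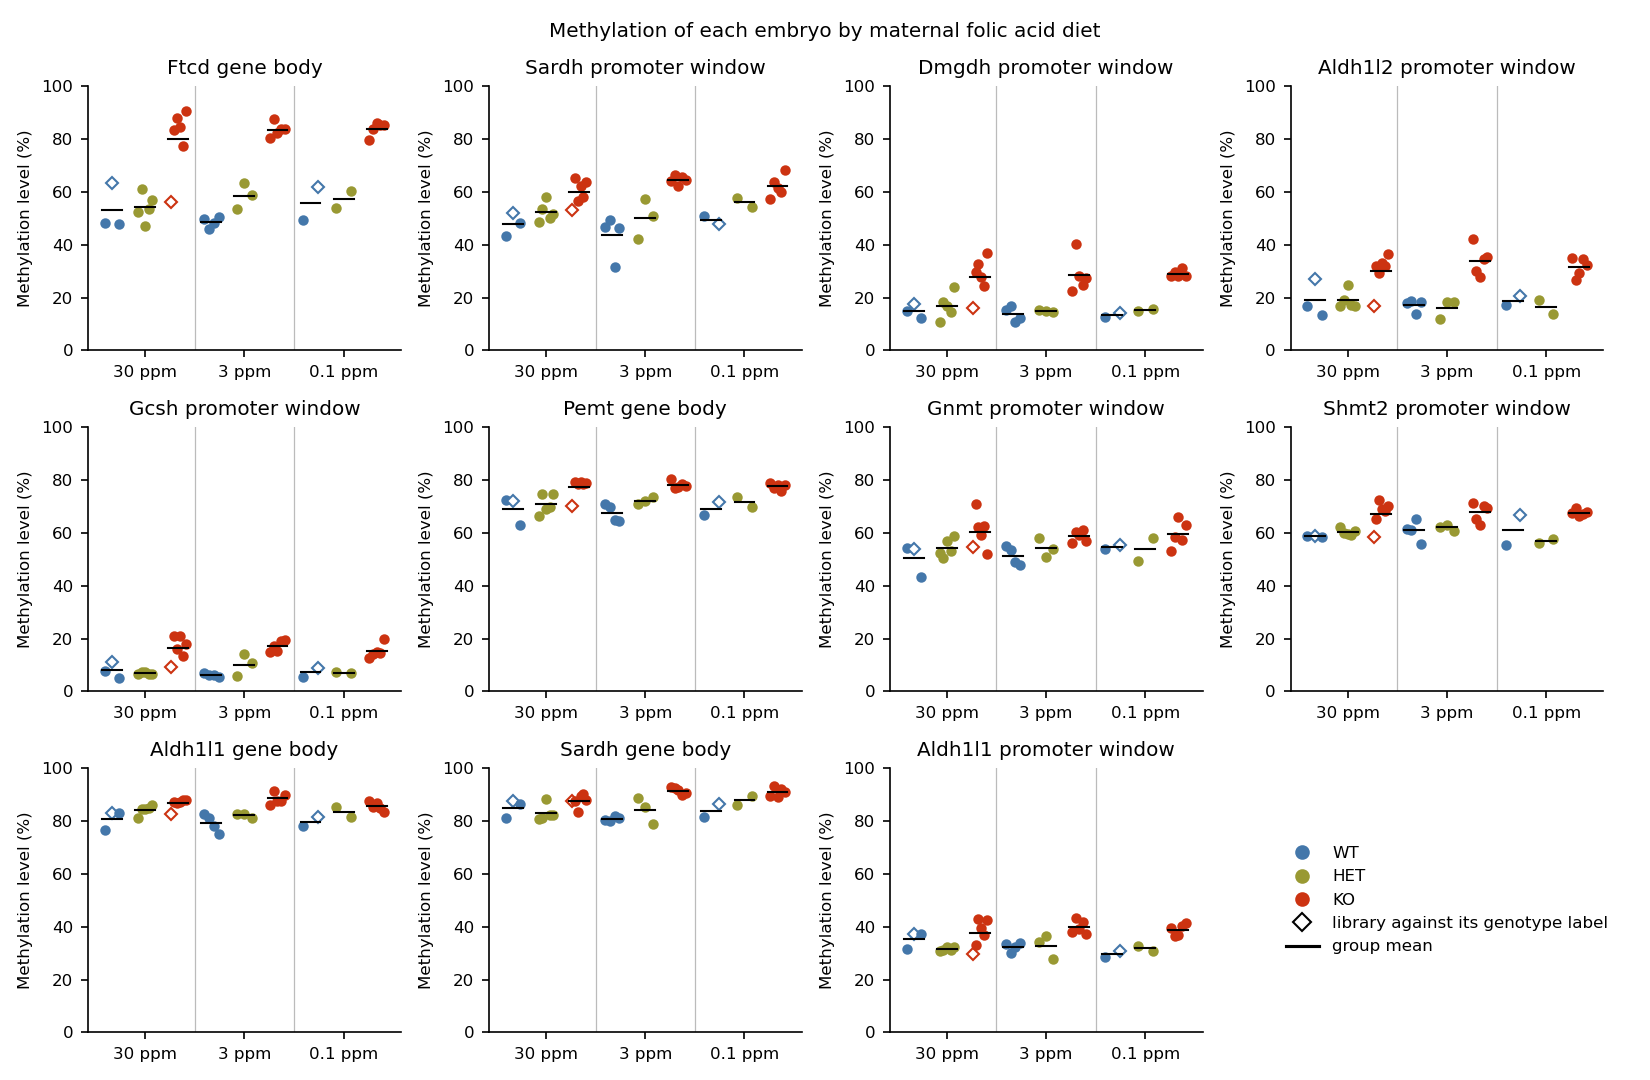
5mC level in percent of every embryo at the 11 called member regions, by genotype, with bars at the group means and open diamonds for the 3 libraries that went against their labels. Most KO points stand above the WT points and HET points overlap WT points at each region, and in the Ftcd body the open KO diamond, at 56.0%, is the lowest KO point.

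**Figure D3:**
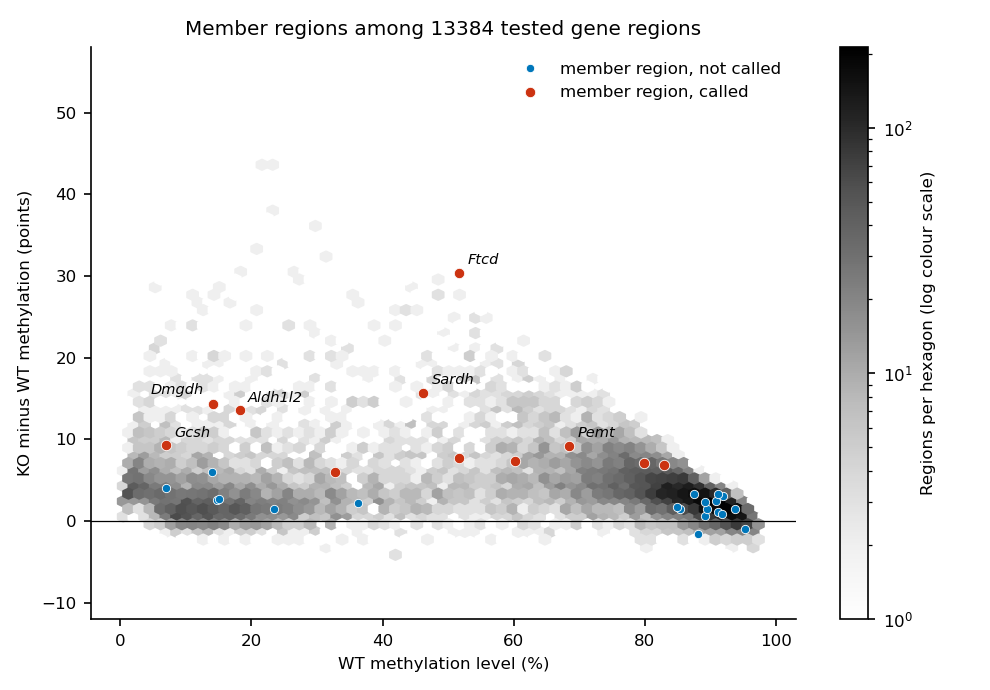
KO minus WT difference in points against the WT level in percent for the 13384 tested regions, shaded by their number, with the member regions as points. Regions above 0 are 93.5% of all, and the members lie within the cloud but for the Ftcd body, which has 0.545% of regions above it.

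The gain was uneven along the called windows, as CpGs were read one by one and blocks of neighbours were then picked after their values were seen. In Gcsh it lay within the first exon: 17 CpGs 75 to 231 bases past the start rose from 11.2 ± 3.51% in WT (SD, n = 9) to 31.0 ± 5.76% in KO (SD, n = 16), and each of the 17 was higher. On either side of them the CpGs stayed at the floor, with 8 CpGs before the start at 0.479% in WT and 0.435% in KO and 13 CpGs 248 to 453 bases past it at 0.525 and 0.511%. HET embryos read 12.8% over the 17. The 9.33 points of the whole window average over these 3 stretches.

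Aldh1l2 showed the same contrast between the start and the far side of its CpG-rich stretch. The 12 CpGs 16 to 172 bases past the start were at 1.95% in WT and 1.76% in KO embryos. Those 191 to 344 bases past it went from 1.98 to 11.6%, and 5 CpGs 732 to 808 bases past it from 7.56 ± 5.72% (SD, n = 9) to 50.096 ± 13.5% (SD, n = 16). At these 5 the HET embryos read 11.8%. Chdh had the gain on both sides of an unmethylated centre: 18 CpGs at the start were at 1.17% in WT and 1.725% in KO, 3 CpGs upstream went from 3.52 to 13.2%, and 3 downstream from 9.60 to 24.9%.

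In Dmgdh the gain covered the start itself, where 18 CpGs from 185 bases before it to 82 bases past it rose from 8.14 to 23.6% and each was higher, while 2 CpGs at an inner start 37 kb away stayed at 96.3 and 96.4%. In Gnmt 7 CpGs of the first exon went from 18.4 to 27.0%, and 9 CpGs of later exons, near full methylation, from 93.3 to 95.2%. Shmt2 was the reverse: its 4 CpGs at the start read 0.601 and 1.54%, and 23 CpGs inside the gene went from 79.2 to 88.6%. In Ftcd the exon printed above, 8929 to 8982 bases into the gene, went from 33.6 ± 7.82% (SD, n = 9) to 77.7 ± 11.01% (SD, n = 16), and the other 3 body CpGs from 81.4 to 89.9%.

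**Figure D4:**
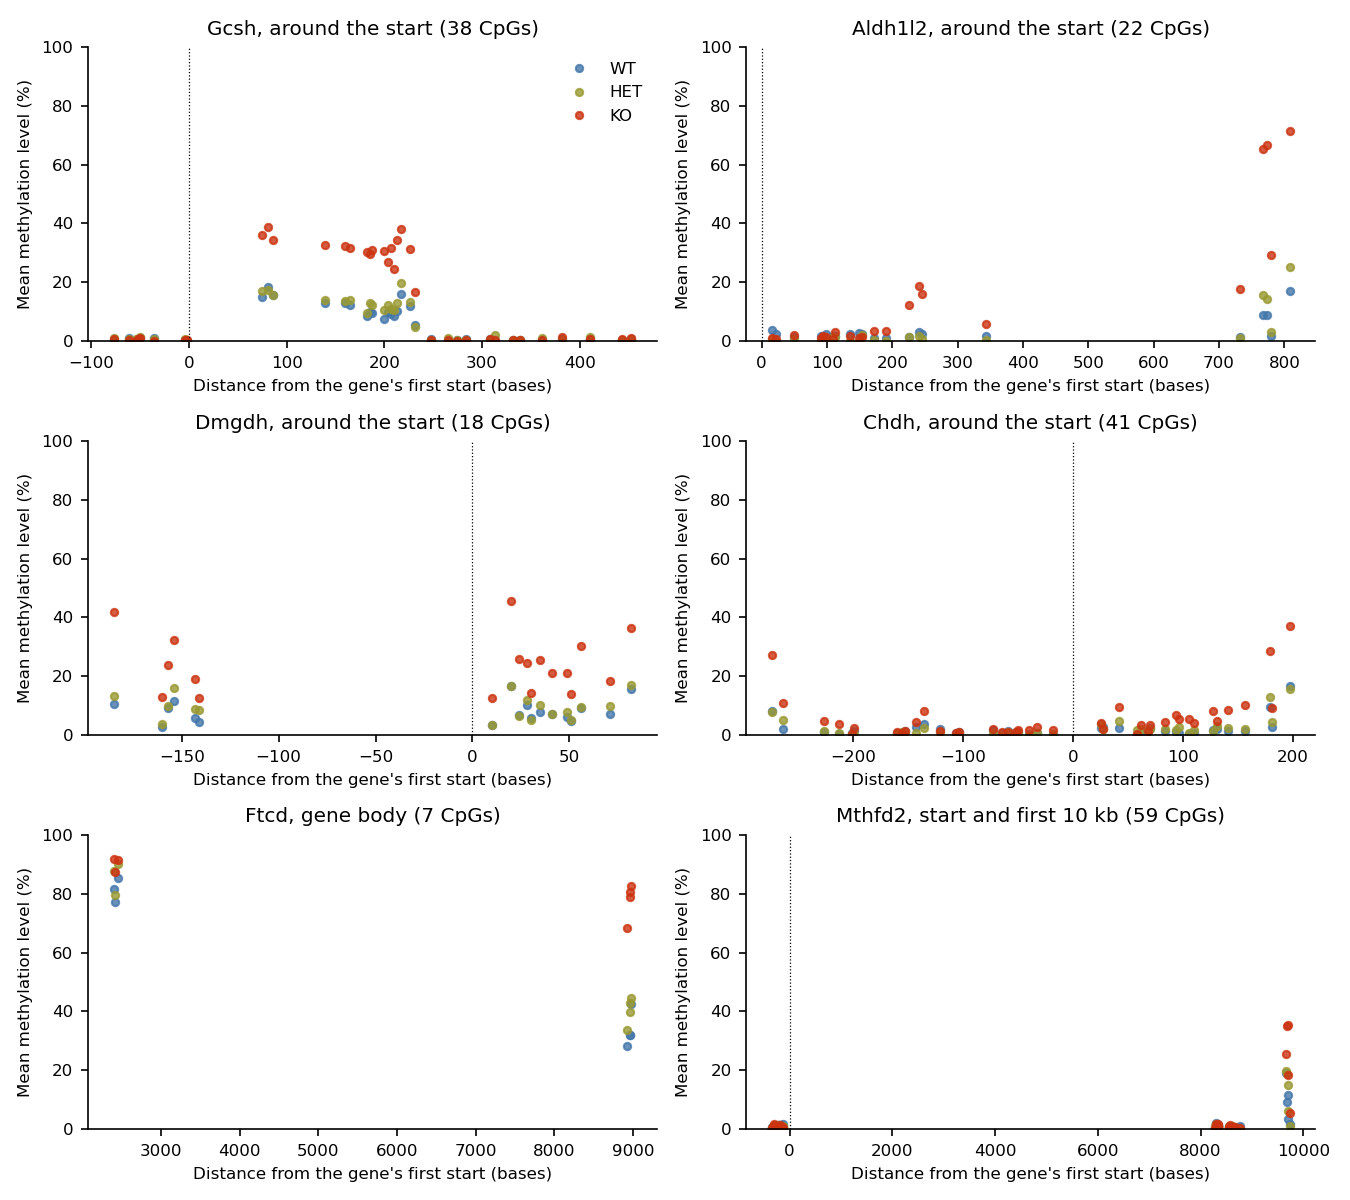
Mean 5mC level in percent at each CpG of Gcsh, Aldh1l2, Dmgdh, Chdh, Ftcd and Mthfd2 in WT, HET and KO embryos, by distance in bases from the first start of the gene. The KO points lie above the WT and HET points over the first exon of Gcsh, the far side of Aldh1l2, the start of Dmgdh and the Ftcd exon. Elsewhere in Gcsh the points of all genotypes lie together at about 0.

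Tiles of 1 kb show where in a gene the difference lies without gene models. A tile was called at 10 points or more, and 9 of 65 member tiles were called in KO against WT over all diets, beside 14.3% of all tiles. None of the members' tiles was called lower. Without the 3 libraries that went against their labels 14 member tiles were called, beside 17.8% of all, with first tiles in Gcsh (11.02 points), Gnmt (10.7) and Shmt1 (12.1) and second tiles in Ftcd (11.9) and Shmt2 (11.3) added. Each of the 9 lies in a different gene, and 7 of these genes also had a called region. The Ftcd tile of 4 exon CpGs ran from 25.8 to 48.1% in WT (median 31.1), 29.8 to 46.3% in HET (median 40.11) and 40.24 to 88.5% in KO embryos (median 80.2), a gain of 43.68 ± 4.33 points (adjusted p = 3.1e-10). The Aldh1l2 tile (chr10:83533001) rose by 20.3 ± 2.59 points over 13 CpGs, from a WT range of 0.276 to 11.2% (median 3.35) to a KO range of 4.68 to 35.1% (median 25.2), with HET embryos from 3.13 to 6.80% (median 4.25). The Dmgdh tile at the start rose by 15.5 ± 2.12 points, with no overlap between 5.76 to 11.4% in WT (median 8.20) and 11.6 to 35.5% in KO embryos (median 23.2), and HET embryos from 4.17 to 16.6% (median 8.75).

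Tiles were also called in Mthfd2 and Chdh, which had no called region over all diets. Mthfd2 (chr6:83305691-83325908), a mitochondrial dehydrogenase that is high in embryonic and dividing cells, stayed at 0.764% in WT and 0.531% in KO over 31 CpGs at its main start. Its intron 9.7 kb on belongs to the promoter window too, by an inner annotated start. There 5 CpGs ran from 4.598 to 15.2% in WT (median 7.63), 3.61 to 16% in HET (median 11.7) and 14.3 to 35.19% in KO embryos (median 24.4). This was a gain of 15.2 ± 2.07 points (adjusted p = 1.75e-08), with 15 KO embryos above every WT. In Chdh a tile of 5 CpGs (chr14:30033001) ran from 53.3 to 64.9% in WT (median 57.6), 55.3 to 72.5% in HET (median 59.3) and 54.4 to 88.8% in KO embryos (median 76.0) and rose by 16.5 ± 3.23 points (adjusted p = 3.42e-05). The Shmt2 tile (3 CpGs) ran from 52.3 to 69.1% in WT (median 62.5), 49.5 to 71.5% in HET (median 58.8) and 58.4 to 91.0% in KO embryos (median 81.4) and rose by 18.6 ± 3.18 points. The Sardh tile (3 CpGs, in the intron printed above) ran from 25 to 50.4% in WT (median 41.43), 39.4 to 55.3% in HET (median 49.5) and 49.5 to 64.9% in KO embryos (median 58.2) and rose by 15.6 ± 2.25 points. Of the tiles with smaller gains, the Aldh1l1 tile rose by 12.7 ± 2.79 and the Pemt tile by 11.2 ± 2.14 points.

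The comparison within each diet asks whether the KO gain was there on excess, control and depleted folic acid. On 3 ppm, the control diet, the same 11 member regions as over all diets were called of 29 tested, beside 31.5% of all regions. The largest were the Ftcd body at 34.9 ± 1.60 points, the Sardh promoter at 21.0 ± 3.61, Aldh1l2 at 16.7 ± 2.99, Dmgdh at 14.8 ± 3.71 and Gcsh at 10.9 ± 1.13. On 0.1 ppm, with 2 WT embryos, 7 of 28 were called beside 22.5% of all: the Ftcd body (28.3 ± 3.88 points), Dmgdh (15.6 ± 1.12), Aldh1l2 (12.6 ± 2.82), the Aldh1l1 promoter (9.19), the Pemt body (8.42 ± 1.58), Gcsh (7.97 ± 2.23) and the Chdh promoter (5.26 ± 1.24). Leaving out the library labelled WT 0.1 ppm replicate 2 leaves 1 WT embryo and 10 called member regions, beside 27.4% of all, with the lone WT embryo assumed to vary like the other embryos.

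On 30 ppm, the excess diet, the Dmgdh promoter was called (12.8 ± 4.48 points, adjusted p = 0.0493) and the other 28 member regions were not, beside 4.6% of all regions. The Ftcd body differed there by 26.8 ± 8.20 points (adjusted p = 0.0521) and Gcsh by 8.50 ± 2.91 (adjusted p = 0.0516). This diet holds 2 of the 3 libraries that went against their labels. Without them, 11 member regions were called beside 31.5% of all, among them the Ftcd body at 36.63 ± 3.85 points, Aldh1l2 at 17.4, Dmgdh at 16.6, the Sardh promoter at 15.3 and Gnmt at 12.65. These are not the same 11 as over all diets. The Fpgs body (6.69 ± 2.16 points) and the Chdh promoter (5.46 ± 0.96) joined. The Sardh body (3.87 ± 2.43) and the Aldh1l1 promoter (4.63 ± 3.43) were not called. Without the library labelled KO 30 ppm replicate 1 alone, whose genotype is given in 2 ways, the count was 8, without the library labelled WT 30 ppm replicate 2 alone it was 6, and without any 1 of the other 7 it was 0. With litter as a block it was also 0, for the members and for all regions. No share of all regions is given for single embryos left out, so those counts are not read as particular to the members.

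Whether the KO gain differed between diets was tested as an interaction. No member region was called for 30 against 3 ppm (29 tested) or for 0.1 against 3 ppm (31 tested), and 0% of all regions were called in either. The number of member regions at an unadjusted p under 0.05 was 1 and 0 by the quasi-binomial test, beside 5.28% and 4.50% of all regions. The 1 region was the Sardh body, with a gain smaller by 8.03 ± 2.00 points on 30 than on 3 ppm (adjusted p = 0.874), and limma on mean levels also called none. The Ftcd gain on 30 minus that on 3 ppm was -8.10 ± 8.16 points, so this design does not separate it from 0 or from changes of that size. These values include the 2 libraries on 30 ppm that went against their labels. Without them the Ftcd gain was 36.63 ± 3.85 points on 30 ppm, beside 34.95 ± 1.60 on 3 ppm. The Sardh body gain was then 3.87 ± 2.43 points on 30 ppm, beside 10.64 ± 0.72 on 3 ppm.

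**Figure D5:**
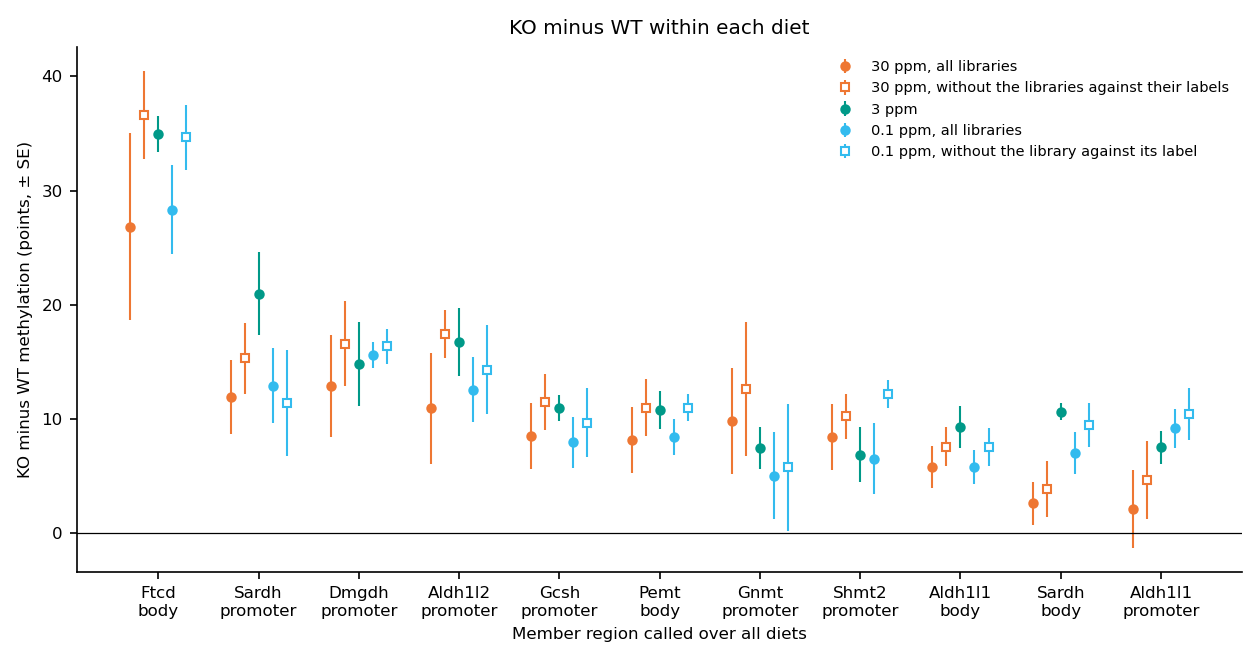
KO minus WT difference in points with its standard error at the called member regions on 30, 3 and 0.1 ppm folic acid, with all libraries and without the 3 that went against their labels. On 30 ppm the plotted differences are smaller with all libraries than without the 3, as in the Ftcd body at 26.8 ± 8.20 and 36.63 ± 3.85 points, and all 3 diets lie on the same side of 0.

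Member tiles were called higher in KO embryos at 4 of 60 on 30 ppm (beside 6.57% of all), 11 of 60 on 3 ppm (17.6%) and 7 of 60 on 0.1 ppm (12.9%). The 30 ppm count ran from 0 to 10 when single embryos were left out, was 10 without the library labelled KO 30 ppm replicate 1, 7 without the library labelled WT 30 ppm replicate 2 and 0 without WT 30 ppm replicate 1, and was 16 without the 3 libraries together (beside 17.2% of all tiles) and 0 with CpGs weighted equally. The 0.1 ppm count was 3 without WT 0.1 ppm replicate 1 and 11 without the library labelled WT 0.1 ppm replicate 2. Where single embryos were left out or CpGs weighted equally, no share of all tiles is given. Those counts are not read as particular to the members. The 4 on 30 ppm were in Mthfd2, Ftcd, Aldh1l2 and Dmgdh. On 3 ppm tiles in the Gcsh first exon (11.1 points) and nearer the Ftcd start (13.4 points) joined, and on 0.1 ppm a tile at the first start of Aldh1l1 (12.8 points).

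At none of the 26 member regions tested over all diets were HET embryos, with 1 intact Tet1 allele, called apart from WT embryos. Of all regions, 0.275% were called. Of the 26, 2 had an unadjusted p under 0.05 by the quasi-binomial test, beside 14.1% of all regions. With each CpG weighted equally, limma called 1. The 2 with low p were the bodies of Aldh1l1 (3.20 points) and Fpgs (2.18 points). The median difference was 1.24 points over the member regions, beside 1.38 over all. HET was higher in 21 of 26, beside 79.2% of all. Within diets, 0 of 24, 26 and 22 member regions were called on 30, 3 and 0.1 ppm, beside 0%, 0.172% and 0.00968% of all. By the quasi-binomial test 1, 2 and 0 had an unadjusted p under 0.05, beside 3.43%, 10.6% and 7.24% of all. By limma 0, 1 and 0 were called. On 3 ppm the Ftcd body differed by 9.94 ± 2.59 points (adjusted p = 0.320) and Gcsh by 3.94. None of 59 member tiles was called, beside 0.305% of all. An unadjusted p under 0.05 by the quasi-binomial test was seen at 5 of them, beside 6483 of all 47178 tiles.

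Without the 2 WT libraries that went against their labels, the Ftcd body was called in HET embryos over all diets, by 8.11 ± 2.00 points (adjusted p = 0.0169), beside 4.87% of all regions. The Ftcd exon tile was then called in HET embryos too, at 10.55 ± 2.15 points (adjusted p = 0.00161), the 1 member tile called beside 1.81% of all. The WT libraries left out were picked by a CpG on the same chromosome, 13.7 Mb away. They were also the highest WT embryos at the Ftcd body, at 63.1 and 61.9%. HET libraries were not picked in that way. Leaving WT libraries out can by itself widen the difference, so neither call is read as a HET gain. On 0.1 ppm 1 WT embryo was then left against 2 HET embryos, so that the spread came from the HET embryos and the lone WT embryo was assumed to vary like them. There the Mthfd1 promoter passed the rule for a call (adjusted p = 0.0414), beside 2.01% of all regions, but its difference of 6.27 ± 6.77 points was smaller than its error and is not read as a gain.

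Maternal folic acid made no called difference at any member region within a genotype, with the 3 libraries that went against their labels included. The largest rises in WT embryos were at the Ftcd body, by 4.52 points on 30 ppm and 6.98 on 0.1 ppm. There the libraries labelled WT 30 ppm replicate 2 and WT 0.1 ppm replicate 2 read 63.1 and 61.9%. The other WT embryos of these diets read 48.0 to 49.2%. For 30 against 3 ppm, 0 of 25, 24 and 25 member regions were called in WT, HET and KO embryos, beside 0% of all regions in each. By the quasi-binomial test 0, 3 and 1 had an unadjusted p under 0.05, beside 1.25%, 5.62% and 7.46% of all. For 0.1 against 3 ppm, 0 of 28, 22 and 23 were called. By the same test 0, 1 and 1 had an unadjusted p under 0.05, beside 4.54%, 4.87% and 4.76% of all. Of all regions, 0%, 0.0541% and 0% were called higher, and 2 more were called lower in HET embryos. In no diet comparison did limma on mean levels call a member. In KO embryos the Sardh body was lower on 30 than on 3 ppm by -3.81 ± 1.18 points (adjusted p = 0.660), and the Cth promoter differed by 9.17 ± 4.07 points on 0.1 ppm. The Tyms promoter in WT embryos differed by -7.69 ± 6.38 points on 0.1 ppm, and the Gcsh promoter in HET embryos by -3.26 points on 30 ppm. With groups of 2 to 6 embryos these errors leave room for diet effects of several points. Diet was given to the dam and some groups hold littermates, so embryos are not independent replicates of a diet. The errors of diet and interaction differences may therefore be too small.

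Beyond the 32 members, 44 genes that supply or use one-carbon units were listed: serine and glycine supply, cobalamin handling, methionine salvage and polyamines, glutathione, purine and pyrimidine synthesis and a rest group. In KO against WT over all diets, 2 of their 18 tested promoter windows and 1 of 20 bodies were called, all higher, beside 31% and 28.5% of all genes. The median difference was 0.77 points over the promoter windows and 2.41 over the bodies. Over the windows and bodies of all genes pooled it was 3.30, so neither median stands beside a median of its own type. The promoter of Bhmt2 rose by 15.5 ± 2.12 points (adjusted p = 7.45e-09), but its window holds the same 18 CpGs as the start of its neighbour Dmgdh, so it is not a separate measurement. Mmab, an enzyme that makes adenosylcobalamin, rose by 5.79 ± 1.63 points at its promoter, and Mthfsd, a protein with a domain like that of Mthfs, by 5.48 ± 1.40 points in its body.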

How the data were processed

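Each library was oxidative bisulfite reduced representation sequencing of 1 brain. Per the labels and the study's methods, the authors trimmed reads (Trim Galore 0.6.10), aligned them to mm10 (Bismark 0.24.1), removed duplicates by molecular identifiers (UMI-tools) and called CpGs; the submitters' processing notes also name methylKit 1.26.0, bedtools 2.31.0, ChIPseeker 1.36.0, deepTools 3.5.5 and R 4.3.1. For every CpG the deposited tables hold the methylated fraction of its reads, computed by the authors. It also gives the deposited count of reads, which is raw and nowhere below 2. Fraction times count was within 1e-06 of a whole number on every line, which gave methylated and unmethylated reads. Positions count from 0 and are printed from 1. The authors' 9 lists of differentially methylated regions, positions alone, were not used.

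The members and the gene lists were chosen with earlier results of these data known. Gcat was left out of the other pathway genes because 2 annotated genes carry its symbol. Regions came from GENCODE vM21 transcripts on GRCm38. A CpG was kept where each of the 35 embryos had 5 reads or more, and regions and 1 kb tiles needed 3 such CpGs and an SD of 2 points over the embryos compared. Methylated and unmethylated reads summed over a region were fitted by a quasi-binomial logistic model, with dispersion moderated as in limma's squeezeVar (checked against limma 3.58.1 in R 4.3.3) and held at 1 or above. Diet was a covariate where diets were pooled. The two-sided F test was adjusted by Benjamini-Hochberg within a comparison, over promoter windows and bodies together, and tiles apart. Differences in points are contrasts of embryo levels with the SE of their residual spread. The test was tested on simulated data. Scripts used Python 3.11.15, numpy 2.4.6, scipy 1.17.1 and pandas 2.3.3.

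By a fixed rule, full values were given for the called regions and tiles of largest difference, at most 8 promoter windows, 5 bodies and 6 tiles of 1 gene each; 7 windows, 4 bodies and 9 tiles were called, and the other 3 tiles are named too. No 2 libraries of a group agreed within sampling noise (chi-square per region 2.15 to 9.47 over 61 pairs). Litters, named in the labels, pair genotypes: 35 littermate pairs of different genotype had a median correlation of deviations from group means of 0.017, and 99 pairs from different litters -0.015. The litter block entered as an alternative. Other alternatives were coverage, the CpGs used, the weight of a CpG, the minimum difference, the SD filter, the spread, the window and leaving out each embryo or the 3 libraries against their labels. Depth limits the precision of a region through its reads, which were 950 to 6260 per embryo at the Gcsh window and 63 to 522 at the Sardh window. Depth was not even between genotypes: mean coverage ran from 16.6 to 61.5 reads in WT and from 12.1 to 22.1 in KO libraries. The deepest library was WT 3 ppm replicate 1, with 197 M calls and the 6260 Gcsh reads. The test weights embryos by their reads, whereas the printed differences and errors weight embryos equally.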

Additional observations from a re-analysis of the deposited data

Results flagged for a closer look

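Single embryos were set apart from the rest of their group of 4 to 6 at 7 of the 55 combinations of called region and group that were tested by Dixon's gap test, where chance gives about 1 in 20. The library labelled KO 30 ppm replicate 1 was low at the Aldh1l2 promoter (16.9% where the other 5 read 29.4 to 36.45%), the Pemt body (70.3% beside 78.4 to 79.2%) and the Aldh1l1 body (82.8% beside 86.9 to 88.0%), and this is the library that read 45.0% at the Tet1 CpG. Its label says KO and the study's own sample list says HET, and which of them holds was not tested. WT 3 ppm replicate 3 was low at the Sardh promoter (31.6% beside 46.4 to 49.3%) and the Aldh1l2 promoter (13.8% beside 18.0 to 18.8%). HET 30 ppm replicate 3 was high at the Aldh1l2 promoter (24.8% beside 16.8 to 19.1%) and the Sardh body (88.2% beside 80.6 to 82.4%). No cause was tested for any of these embryos.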

How the results depend on the processing

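Over 571 alternative values of the 17 named regions and tiles, 560 kept their direction and their call, 0 reversed and 11 lost the call, all of them when the minimum difference was raised to 10 points for regions and 20 for tiles. The size of a gain moved by over 1.5 times in 2 cases, the Aldh1l2 promoter from 13.6 to 20.8 points at a coverage of 10 and the Gnmt promoter from 7.70 to 5.05 with CpGs weighted equally. Of 420 alternative counts of called member regions or tiles, 380 stayed within 1.5 times. That higher minimum took the KO against WT regions from 11 to 4 over all diets, to 7 on 3 ppm and to 3 on 0.1 ppm, and the tiles to 2 over all diets, 1 on 30 ppm, 4 on 3 ppm and 2 on 0.1 ppm. Without the 3 libraries against their labels, the share called on 30 ppm rose from 4.6 to 31.5% of all regions. For all tiles it rose from 6.57 to 17.2%. Beside the other counts of this section no share of all features is given, so their moves are not read as particular to the members.

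The 30 ppm diet moved most. Its 1 called region became 4 at a coverage of 10, 4 with a 1 kb window, 3 with CpGs weighted equally, 9 with a spread shared by all groups, 11 without the 3 libraries against their labels, and 0 with the CpGs of that comparison, without the SD filter or with the litter as replicate block; its 4 tiles became 16 without the 3 libraries, 7 with the shared spread and 0 with equal weights. Without the 3 libraries tiles also went from 9 to 14 over all diets and from 7 to 11 on 0.1 ppm, and HET against WT from 0 to 1 for regions over all diets, regions on 0.1 ppm and tiles. Equal weights gave 1 HET region over all diets and 1 on 3 ppm.

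Leaving out single embryos gave 11 to 11 KO regions over all diets, 0 to 8 on 30 ppm, 9 to 11 on 3 ppm and 5 to 10 on 0.1 ppm, and 8 to 10, 0 to 10, 11 to 13 and 3 to 11 tiles. HET against WT on 0.1 ppm gave 0 to 1, with 1 without WT 0.1 ppm replicate 2, and all other HET, diet and interaction counts stayed at 0. On 30 ppm the highest counts came without the library labelled KO 30 ppm replicate 1 and the fewest tiles without WT 30 ppm replicate 1. On 0.1 ppm the tiles were 3 without WT replicate 1 and 11 without WT replicate 2. Between these counts the cause was not tested.

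With the litter as replicate block, 11 member regions were called over all diets, 11 on 3 ppm and 5 on 0.1 ppm; beside the 30 ppm regions, which went from 1 to 0, the block moved no count by over 1.5 times. It was not run for HET against WT on 0.1 ppm, where no residual degrees of freedom were left, nor for diets, since a litter has 1 diet. Depth limits the precision of regions with few CpGs and reads, such as the Sardh and Tyms windows of 4.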
